A study of Caenorhabditis elegans with 8 samples.

Results

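Nucleolar assembly factors and the nucleolar repressor ncl-1 were followed in dissected intestines of fasted and fed adults of the nematode Caenorhabditis elegans. The members were chosen by name, from 10 gene symbols picked with the fasted against fed values of these same libraries in view, so that their differences between the groups are given as a description without a P value. A row was found for 9 of the 10 symbols among the 20392 genes of the count table, for the 8 assembly factors nog-1, fib-1, lpd-7, dao-5, pro-2, lpd-6, pro-3 and pro-1 and for ncl-1. The symbol nol-1 matched no row by name. The gene that was once called nol-1 in the worm literature is listed as nsun-1, and its values are given apart from the members.

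All 8 libraries came from wild-type N2 worms at day 1 of adulthood, and each library holds the pooled intestines of several animals. The 4 fasted libraries came from worms that had been washed free of bacteria and kept on a roller for 12 h in M9 buffer before dissection. The 4 fed libraries came from worms dissected straight after collection from plates with E. coli OP50. Fasting, the hours in liquid and the added age cannot be told apart in this design. The labels give 12 h for both groups and name auxin in the growth conditions, which the study's methods do not mention for these animals. The deposited values are read counts, and they are given here as RPM, reads per 1000000 counts of the library. In such bulk samples, fewer cells of a type and less RNA per cell cannot be told apart.

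The nucleolus is the compartment in which ribosomal RNA is transcribed, cut, chemically modified and packed with proteins into the precursors of both ribosomal subunits. The factors studied here act in those steps in yeast and human cells. NOG-1 is a GTPase of the large subunit precursor, FIB-1 is fibrillarin, the methyltransferase of the box C/D small nucleolar RNPs, LPD-7 is pescadillo, and DAO-5 is the worm relative of Nopp140, which in vertebrates shuttles through the nucleolus and binds small nucleolar RNPs and RNA polymerase I. PRO-1, PRO-2 and PRO-3 resemble the yeast assembly factors Ipi3, Noc2 and Sda1, and LPD-6 resembles yeast Ssf1. NCL-1 is a TRIM-NHL protein whose loss enlarges nucleoli and raises fibrillarin in many tissues of the worm.

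Total counts ranged from 25310202 to 33846215 in the fasted libraries and from 20964161 to 26372847 in the fed libraries. Genes with at least 1 count numbered 10955 to 13615 in the fasted libraries and 8807 to 9124 in the fed libraries. Transcripts of the vitellogenins, the yolk proteins that the adult intestine makes, took 66.5% to 67.8% of the counts in fasted libraries and 71.8% to 73.2% in fed libraries. The median tested gene was 2.34-fold higher in fasted libraries (log2 fold change 1.23 over 7379 genes) when libraries were scaled by their totals, as the study did. With TMM factors, which assume that most genes do not differ, this median was 0.16, a shift of 1.07 on the log2 scale. Each fold change is therefore read against that shift. The summed intestine markers were at 3169 to 4264 RPM in fasted libraries and 7787 to 8646 RPM in fed libraries. Most of that sum was cpr-1, at 1959 to 2905 RPM in fasted libraries and 5463 to 6710 RPM in fed libraries. Unlike the sum, elt-2 was higher in fasted libraries (5.14 to 8.36 RPM) than in fed libraries (1.37 to 3.15 RPM). So was ges-1, at 11.2 to 15.7 RPM in fasted libraries and 5.88 to 8.21 RPM in fed libraries. Of 11 tested, 3 were called higher and 5 lower in fasted libraries, and the embryonic marker end-3 was at 0 in every library.

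As a sum, the 8 assembly factors were present at a much higher level in the intestines of fasted worms than in those of fed worms. Their summed level was 492, 439.7, 431 and 394 RPM in the 4 fasted libraries, against 15.02, 13.5, 12.5 and 14.7 RPM in the 4 fed libraries. The means were 439 ± 40.7 RPM in fasted libraries and 13.9 ± 1.17 RPM in fed libraries (SD, n = 4 each), a ratio of 31.5. The fasted libraries lay close together and far above the fed ones. After TMM scaling the ratio was 14.9, with 302.5 ± 28.8 in fasted libraries and 20.3 ± 2.17 in fed libraries (SD, n = 4 each). Most of the fasted sum by totals was nog-1 (mean 196 RPM), fib-1 (91.7 RPM), lpd-7 (82.9 RPM) and dao-5 (52.8 RPM). The sum thus says little about pro-1, pro-2, pro-3 and lpd-6. The repressor ncl-1 was 2.41-fold higher by totals, next to the 2.34-fold of the median gene, and of the factors pro-1, at 3.49-fold, was the nearest to it.

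**Figure D1:**
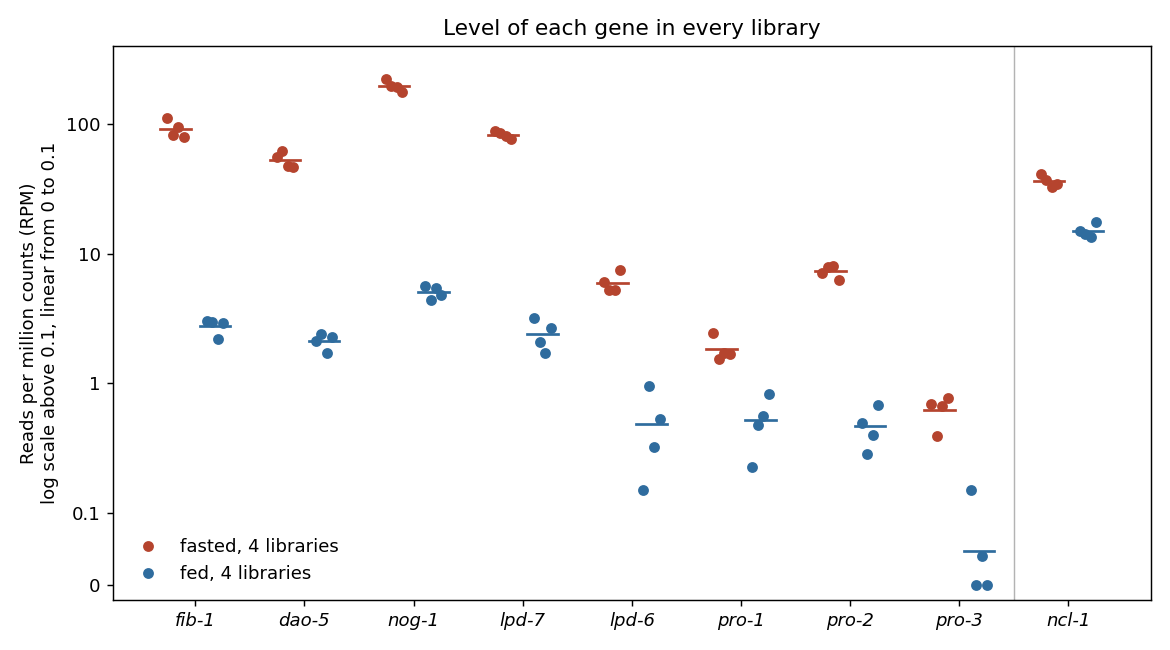
Level of each member in each of the 4 fasted and 4 fed libraries, in RPM (axis linear from 0 to 0.1 and logarithmic above). Each point is 1 library; fasted and fed points do not overlap for any of the 9 members, and the gap is narrowest for ncl-1 and pro-1.

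All 9 members were tested and all 9 were called higher in fasted libraries (edgeR, FDR under 0.01 and a fold change over 1.5), where 52.9% of the 7379 tested genes were called higher. With TMM factors 6 of the 9 were called higher, where 19.6% of the tested genes were, and with DESeq2 6 of the 9, where 23.7% were. In all 9 the lowest fasted library lay above the highest fed library, as it did in 58.5% of the tested genes. Since these values chose the members, nothing is read from those counts. The low-count filter asked for about 0.379 RPM in at least 4 libraries, which all 9 members reached in every fasted library. Only 5 reached it in every fed library; pro-1, pro-2, lpd-6 and pro-3 were below it in at least 1 fed library, and so passed through the group where they were high.

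The gene nog-1 (WBGene00020297) was the member with the most reads. It lies at IV:393880-396554 on the plus strand of WBcel235, the build of the annotation, which is later than the ce10 build used for the counts. It had 221, 195, 191 and 176 RPM in fasted libraries, against 5.65, 4.39, 5.47 and 4.82 RPM in fed libraries. Every fasted library was many times above every fed library, and neither group had a library that stood apart. The ratio of the means was 38.5, and the fitted log2 fold change was 5.27 (SE 0.155), or 4.2 with TMM. Its annotated span overlaps rrp-8 on the same strand by 5 bp, and rrp-8 had 109 to 198 counts in fasted libraries and 6 to 8 in fed libraries, against 4943 to 6721 and 92 to 149 counts for nog-1.

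Fibrillarin, fib-1 (WBGene00001423, V:15000651-15002223, minus strand), places methyl groups on ribosomal RNA under the guidance of box C/D RNAs. It had 111, 81.7, 95.3 and 78.8 RPM in fasted libraries, against 3.03, 2.96, 2.21 and 2.92 RPM in fed libraries. Fed replicate 3 was the lowest of its group, and the others lay between 2.92 and 3.03 RPM. The log2 fold change was 5.04 (SE 0.190), or 3.96 with TMM.

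The pescadillo gene lpd-7 (WBGene00003063, III:7573350-7575263, plus strand) encodes a large subunit factor that in yeast and mammals works in a complex with BOP1 and WDR12. It had 88.9, 85.6, 81.0 and 76.4 RPM in fasted libraries, against 3.19, 2.10, 1.73 and 2.65 RPM in fed libraries. Its fasted values were the tightest of all members, with an SD of 0.09 on the log2 scale. The log2 fold change was 5.1 (SE 0.214), or 4.02 with TMM.

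The gene dao-5 (WBGene00000931, I:10187546-10190896, minus strand) encodes a protein rich in serine and charged residues, as Nopp140 is. It had 55.6, 62.0, 47.5 and 46.3 RPM in fasted libraries, against 2.12, 2.39, 1.73 and 2.28 RPM in fed libraries. The groups were again far apart, by a log2 fold change of 4.63 (SE 0.186), or 3.55 with TMM. It overlaps rsa-1 on the opposite strand by 5 bp, and rsa-1 had 33 to 309 counts in fasted libraries and 2 to 10 in fed libraries. The study counted reads in the orientation of the exons, but the library kit is not stated to keep the strand, so how reads in such overlaps were divided is uncertain.

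Among the Pro genes, named for a germline proliferation defect, pro-2 (WBGene00007413, II:10339727-10345112, minus strand) is the Noc2 relative that accompanies early large subunit precursors. It had 7.06, 7.90, 8.06 and 6.32 RPM in fasted libraries, against 0.493, 0.286, 0.402 and 0.683 RPM in fed libraries. All fed libraries were below 1 RPM and all fasted libraries above 6 RPM. The log2 fold change was 3.95 (SE 0.274), or 2.89 with TMM.

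The Ssf1 relative lpd-6 (WBGene00003062, I:3144411-3147793, minus strand) also serves the large subunit precursor in yeast. It had 6.01, 5.25, 5.23 and 7.47 RPM in fasted libraries, against 0.152, 0.954, 0.322 and 0.531 RPM in fed libraries. The fed values rest on 4, 20, 8 and 14 counts and spread widely, with fed replicate 1 lowest and fed replicate 2 highest. The log2 fold change was 3.63 (SE 0.428), or 2.54 with TMM.

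The Sda1 relative pro-3 (WBGene00012676, V:19101347-19118412, minus strand) had the fewest reads of all members. It had 0.690, 0.395, 0.666 and 0.768 RPM in fasted libraries, against 0.152, 0, 0.0402 and 0 RPM in fed libraries. These are 21, 10, 20 and 26 counts in fasted libraries and 4, 0, 1 and 0 counts in fed libraries. The 0 counts of fed replicates 2 and 4 allow up to 0.143 and 0.114 RPM.

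Because so few reads stand behind pro-3, its size was uncertain. The pooled ratio was 12.7, with an exact 95% interval of 5.21 to 40.2 that covers counting error only. The fitted log2 fold change was 3.54 (SE 0.780), or 2.53 with TMM, and it was 5.11 without fed replicate 1, the library with 4 of the 5 fed counts. The gene was no longer called higher with TMM, with DESeq2, without fed replicate 3, with no low-count filter, or without fasted replicates 1 and 4. Its span overlaps zhp-4 on the same strand by 440 bp, where zhp-4 had 0 to 8 counts in fasted libraries and 0 in fed libraries.

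The Ipi3 relative pro-1 (WBGene00004185, II:10539438-10541996, minus strand), a WD-repeat protein of the late large subunit precursor in yeast, had the smallest difference among the 8 factors. It had 2.43, 1.54, 1.73 and 1.68 RPM in fasted libraries, against 0.228, 0.477, 0.563 and 0.834 RPM in fed libraries. The fed values run from 6 to 22 counts. The groups did not overlap, yet the highest fed and the lowest fasted library were less than 1 RPM apart.

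The log2 fold change of pro-1 was 1.80 (SE 0.404), or 0.73 with TMM, and it was not called with TMM, with DESeq2, or without fasted replicates 1 and 4. It lay at the 67.9th percentile of the log2 fold changes of all tested genes. The other 7 factors lay between the 92.0th percentile (pro-3) and the 97.6th (nog-1).

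The repressor ncl-1 (WBGene00003559, III:7719729-7738105, plus strand) limits nucleolar size and fibrillarin in worms. It had 41.4, 36.9, 32.6 and 34.4 RPM in fasted libraries, against 15.1, 14.1, 13.5 and 17.5 RPM in fed libraries. All fasted libraries were above all fed libraries, and both groups were tight. The means were 36.3 ± 3.82 RPM in fasted libraries and 15.04 ± 1.74 RPM in fed libraries (SD, n = 4 each).

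The log2 fold change of ncl-1 was 1.27 (SE 0.149), which is 0.04 above the median of all tested genes and at their 51.2th percentile. With TMM it was 0.19, and ncl-1 was then not called; the same held with DESeq2. Whether ncl-1 was called higher thus depended on the scaling, while leaving out any 1 library kept its log2 fold change between 1.2 and 1.35. It overlaps WBGene00022661 on the opposite strand by 51 bp, a gene with 144 to 222 counts in fasted libraries and 38 to 63 counts in fed libraries, against 934 to 1261 and 296 to 461 counts for ncl-1.

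**Figure D2:**
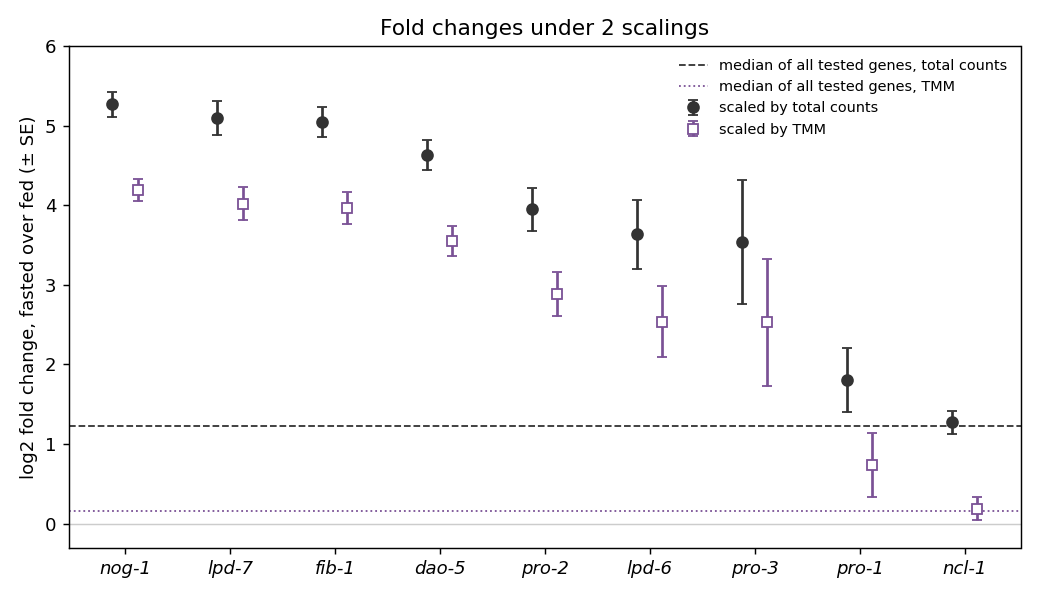
Fitted log2 fold change, fasted over fed, of each member with libraries scaled by their totals and by TMM; bars are standard errors and the lines mark the median of all 7379 tested genes under each scaling. By totals 7 factors lie between 3.54 and 5.27, while pro-1 (1.80) and ncl-1 (1.27) lie nearer to the median of 1.23.

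The gene nsun-1 (WBGene00021073), which encodes a methyltransferase of ribosomal RNA, was described alongside. It had 5.39, 3.71, 5.86 and 5.64 RPM in fasted libraries, against 0.303, 0.668, 0.483 and 0.228 RPM in fed libraries. Its log2 fold change was 3.63 (SE 0.346), the same to 2 decimals as that of lpd-6, or 2.56 with TMM.

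Levels of different genes were compared per length, in RPM per 1000 bases of exon (RPKM). In fasted intestines nog-1 (83.4 ± 7.91 RPKM) and fib-1 (67.7 ± 10.9) were highest, followed by lpd-7 (47.9 ± 3.15), dao-5 (13.5 ± 1.89), ncl-1 (8.24 ± 0.865), pro-2 (3.18 ± 0.349), lpd-6 (3.14 ± 0.552), pro-1 (1.08 ± 0.232) and pro-3 (0.261 ± 0.0673; SD, n = 4 each). The ranges of nog-1 and fib-1 overlapped, as did those of pro-2 and lpd-6, and all other neighbours were separate. The exon length of pro-3 in the file is 2414 bp, while the annotation used here gives 3513 bp, so its level per length is the least certain.

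In fed intestines the order was another one, with ncl-1 on top. Its level was 3.41 ± 0.395 RPKM, ahead of nog-1 (2.17 ± 0.249), fib-1 (2.05 ± 0.282), lpd-7 (1.40 ± 0.369), dao-5 (0.545 ± 0.0733), pro-1 (0.307 ± 0.146), lpd-6 (0.257 ± 0.182), pro-2 (0.202 ± 0.0725) and pro-3 (0.0199 ± 0.0297; SD, n = 4 each). The ranges of ncl-1 and nog-1 did not overlap. Those of nog-1 and fib-1 did, and so did those of fib-1 and lpd-7 and those of each pair of neighbours from dao-5 down to pro-2. Among all tested genes in the fasted group, nog-1 stood at the 96.2th percentile of level and ncl-1 at the 76.1th; in the fed group nog-1 stood at the 62.9th and ncl-1 at the 71.5th.

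**Figure D3:**
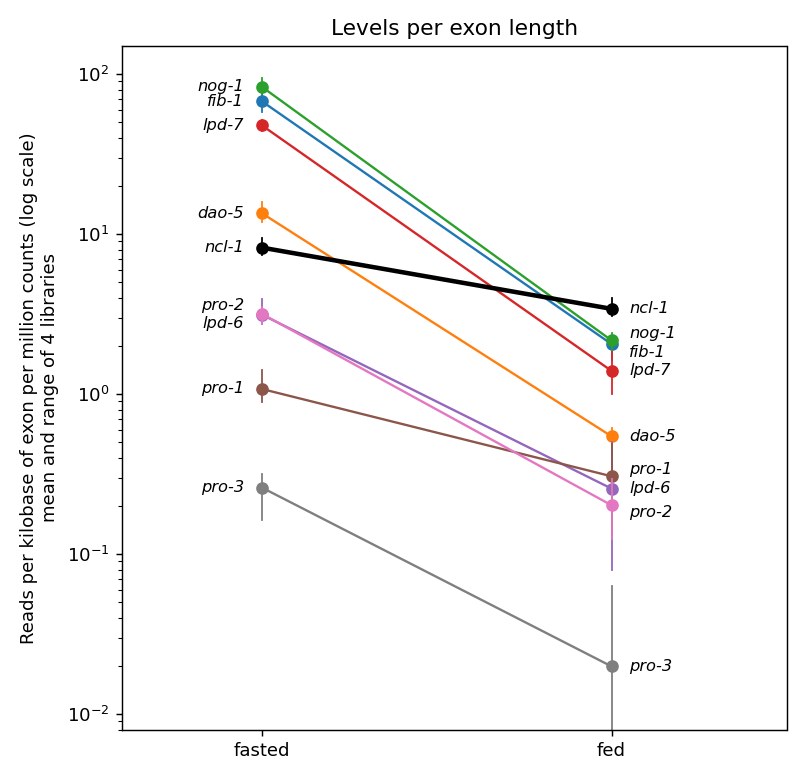
Level per exon length (RPKM, logarithmic axis) of the members in fasted and fed libraries, as the mean with the range of 4 libraries; the bar of pro-3 in fed libraries runs off the axis to 0. In fasted libraries nog-1, fib-1, lpd-7 and dao-5 exceed ncl-1, and in fed libraries ncl-1 exceeds all 8 factors.

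A ratio between genes of the same library does not depend on how libraries are scaled. Reads of the 8 factors together per read of ncl-1 were 11.9, 11.9, 13.2 and 11.4 in fasted libraries, against 0.997, 0.959, 0.923 and 0.842 in fed libraries. The means were 12.1 ± 0.762 in fasted libraries and 0.930 ± 0.0665 in fed libraries (SD, n = 4 each), a 13.02-fold difference. The balance of factor reads to repressor reads thus differed far more between groups than among the libraries of either.

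By member, the ratio to ncl-1 was 15.8-fold higher in fasted libraries for nog-1 (5.40 ± 0.325 in fasted and 0.342 ± 0.0590 in fed), 14.3-fold for lpd-7 (2.29 ± 0.146 and 0.160 ± 0.0360), 13.6-fold for fib-1 (2.53 ± 0.333 and 0.185 ± 0.0234) and 10.3-fold for dao-5 (1.46 ± 0.159 and 0.142 ± 0.0188; SD, n = 4 each). It was 6.69-fold for pro-2, 5.37-fold for pro-3 and 5.05-fold for lpd-6. For pro-1 the ratio was 0.0506 ± 0.0071 in fasted libraries and 0.0346 ± 0.0142 in fed libraries (SD, n = 4 each), and the ranges overlapped: the lowest fasted library was at 0.0418 and the highest fed library at 0.0477. Relative to ncl-1, then, pro-1 was the factor whose groups were not separate. Those of pro-3 (0.0175 ± 0.0051 in fasted and 0.0033 ± 0.0048 in fed; SD, n = 4 each) were barely so. Its lowest fasted library was at 0.0107 (10 counts of pro-3) and its highest fed library at 0.0101 (4 counts).

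**Figure D4:**
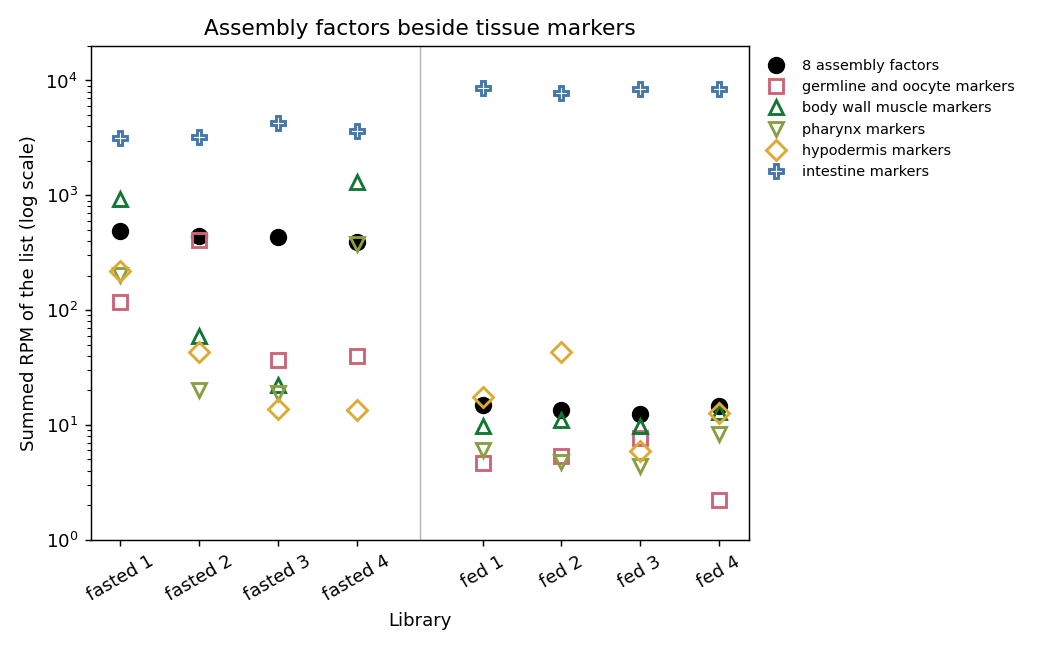
Summed RPM of the 8 assembly factors and of marker lists for the intestine and 4 other tissues, in each fasted and fed library (logarithmic axis). The factor sum stays within 394 to 492 RPM over the fasted libraries, while the muscle marker sum spans 22.3 to 1317 RPM.

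Markers of other tissues differed between the groups and among the fasted libraries. In fasted replicates 1 to 4, body wall muscle markers summed to 919, 59.4, 22.3 and 1317 RPM, pharynx markers to 204, 20.2, 19.1 and 377 RPM, and germline and oocyte markers to 117, 406, 37.1 and 39.97 RPM. In fed libraries these sums were 9.71 to 13.01 RPM for muscle, 4.38 to 8.34 RPM for pharynx and 2.24 to 7.68 RPM for germline and oocyte. Of the 16 germline and oocyte markers, 5 (glh-2, glh-4, oma-1, mex-3 and syp-1) were at 0 in all fed libraries, and 0 of the 16 were at 0 in all fasted libraries.

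The defining muscle genes myo-3 and hlh-1 were at 0 in all fed libraries, as were 3 of the 9 pharynx markers and 6 of the 11 neuron markers. In fasted replicates 1 to 4, myo-3 was at 37.7, 1.58, 0 and 14.7 RPM. There hlh-1 was at 0, 0, 0 and 0.266 RPM, so it hardly differed between the groups. Hypodermis markers summed to 218, 43.5, 13.7 and 13.5 RPM in fasted libraries and to 5.95 to 43.4 RPM in fed libraries. The collagen gene col-140 alone made 205 RPM of the sum in fasted replicate 1 and 35.1 RPM in fed replicate 2, the highest fed one. Neuron markers summed to 56.1, 16.4, 15.2 and 68.4 RPM in fasted libraries and to 8.72 to 13.03 RPM in fed libraries. Somatic gonad markers summed to 1.03 to 3.83 RPM in fasted libraries and to 0 to 0.152 RPM in fed libraries. Sperm markers summed to 0.899 to 2.59 RPM in fasted libraries and to 0.845 to 1.57 RPM in fed libraries.

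Fasted replicate 1, with the highest hypodermis sum and the muscle and pharynx sums next to the highest, had the highest factor sum (492 RPM), and fasted replicate 4, with the highest muscle and pharynx sums, had the lowest (394 RPM). Among the fasted libraries the highest muscle sum was 58.9 times the lowest, the highest pharynx sum 19.7 times and the highest germline and oocyte sum 10.9 times. The highest factor sum was 1.25 times the lowest. Without fasted replicates 1 and 4, the libraries with the most muscle and pharynx RNA, the factor sum was 31.2-fold higher in fasted libraries. Leaving out any 1 library gave 30.2-fold to 32.6-fold. The lowest germline and oocyte sum of the fasted libraries, 37.1 RPM in replicate 3, was above the highest fed sum of 7.68 RPM. Of that 37.1 RPM, glh-1 alone made 28.4 RPM and nos-2 made 5.80 RPM. Both were above their fed ranges of 0.379 to 1.21 RPM (glh-1) and 0.720 to 1.62 RPM (nos-2). Over fasted replicates 1 to 4, glh-1 was at 65.1, 46.3, 28.4 and 27.9 RPM. In fasted replicate 3, rme-2 (1.87 RPM) lay within its fed range of 0.379 to 2.01 RPM, and cbd-1 (0.333 RPM) within 0 to 1.53 RPM. The part of RNA from muscle, pharynx, hypodermis, germline, oocytes or any other tissue in the factor levels was not tested.

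Spread was taken as the SD of log2(RPM + 0.5). Over the fasted libraries it lay between 0.09 (lpd-7) and 0.23 (pro-1) for the members, below the median of 0.28 over all tested genes. In fed libraries lpd-6 (0.49), pro-1 (0.36) and lpd-7 (0.32) were above the corresponding median of 0.29. The added 0.5 damps the spread of genes with few reads, so pro-3 (0.18) and pro-2 (0.25) cannot be called tight in fed libraries. In plain RPM their fed SD was 149% of the mean for pro-3 and 35.9% for pro-2.

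Of the summed RPKM of the 8 factors, nog-1 took 37.9 ± 0.499% in fasted libraries and 31.4 ± 4.99% in fed libraries (SD, n = 4 each). The share of fib-1 was 30.6 ± 2.31% in fasted libraries and 29.5 ± 2.22% in fed libraries, and that of lpd-7 was 21.8 ± 1.02% in fasted libraries and 19.9 ± 3.56% in fed libraries (SD, n = 4 each). The share of pro-1 was 0.486 ± 0.0642% in fasted libraries and 4.46 ± 2.07% in fed libraries (SD, n = 4 each). So nog-1, fib-1 and lpd-7 made up most of the factor RNA in both groups, and pro-1 took a larger share in fed intestines.

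Ribosome biogenesis genes outside the members were taken from 5 lists, which together had 54 genes in the table and 51 that were tested. Of these 51, 49 rose and 0 fell in fasted libraries, where 52.9% of all tested genes were called higher. Their median log2 fold change was 3.67, against 1.23 over all tested genes and 4.29 over the 8 assembly factors. With TMM 43 of the 51 were called higher, against 19.6% of all tested genes, with a median of 2.61. The lists were drawn up with earlier results of these data known.

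All 7 tested proteins of the small nucleolar RNPs rose, with a median log2 fold change of 3.72. Among them were nol-58 (4.48, SE 0.308, edgeR FDR 6.44e-07), a core partner of fibrillarin in box C/D particles, and dkc-1 (3.40, SE 0.253, edgeR FDR 1.12e-06), the pseudouridine synthase dyskerin of the H/ACA particles. Y48A6B.3 averaged 2.66 RPM in fasted libraries and had no count in any fed library, which makes it at least 21.6-fold higher against a floor of 3 counts per library. The median of the list was 3.72 with that gene at its bound.

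For the large subunit, 12 of 13 tested assembly genes rose, with a median of 3.93. The largest differences were those of F10E7.5 (5.16, SE 0.480, edgeR FDR 4.93e-06) and of ngp-1 (4.94, SE 0.427, edgeR FDR 3.09e-06), which encodes a nucleolar GTPase like NOG-1. No fed library had more than 6 counts of F10E7.5, so the size of its difference is less certain. The gene not called was wdr-12, with a log2 fold change of 0.73 (SE 0.498, edgeR FDR 0.198) by totals and −0.33 with TMM.

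For the small subunit all 14 tested genes rose, with a median of 3.88 (12 with TMM). The ends of the range were emg-1 (5.60, SE 0.686, edgeR FDR 3.61e-05), a methyltransferase of the small subunit RNA, T23D8.3 (5.02, SE 0.208, edgeR FDR 2.81e-08) and nath-10 (1.91, SE 0.286, edgeR FDR 1.45e-04), the relative of the RNA acetyltransferase NAT10, which was not called with TMM or DESeq2. The fed libraries had at most 4 counts of emg-1, and without fed replicate 4 its log2 fold change was 6.60.

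All 10 tested genes of the RNA exosome and of ribosomal RNA trimming rose, with a median of 2.89 (6 with TMM). The exosome subunits exos-8 (3.64, SE 0.275, edgeR FDR 1.21e-06) and exos-7 (3.64, SE 0.234, edgeR FDR 4.19e-07) had the largest differences. The exonuclease gene xrn-2 had the smallest, 1.27 (SE 0.361, edgeR FDR 0.00807), and its call was lost with TMM, with DESeq2 and when any of 7 single libraries was left out (FDR 0.0135 to 0.0277).

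For transcription of ribosomal DNA, 6 of 7 tested genes rose, with a median of 3.51. The subunits rpac-40 (4.48, SE 0.400, edgeR FDR 3.79e-06) and rpac-19 (4.21, SE 0.669, edgeR FDR 2.20e-04), which RNA polymerases I and III share, had the largest differences. No fed library had more than 8 counts of rpac-40 or 5 of rpac-19, so these sizes are less certain. The polymerase I subunit gene rpoa-12 was not called (1.28, SE 0.546, edgeR FDR 0.0521).

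**Figure D5:**
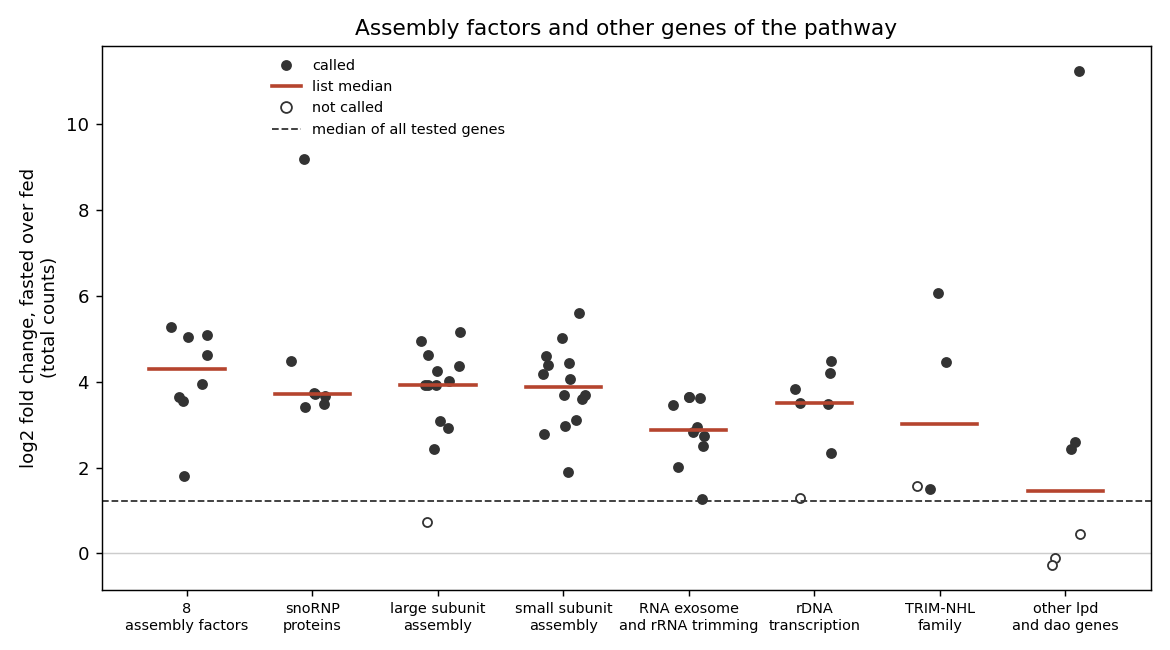
Log2 fold change, fasted over fed, of each tested gene in the ribosome biogenesis, TRIM-NHL and other lpd and dao lists beside the 8 assembly factors; each point is 1 gene (filled where called), short lines are list medians, the dashed line is the median of all tested genes (1.23), and the fitted values of Y48A6B.3 and dao-6, the highest points of their lists, are no bounds because their fed libraries are at the floor. The 8 assembly factors (median 4.29) lie within the range of the 5 ribosome biogenesis lists, whose medians run from 2.89 to 3.93.

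The partners with which fib-1 and lpd-7 form complexes were looked up after the values had been seen. Of the box C/D core, fib-1 averaged 67.7 RPKM in fasted and 2.05 RPKM in fed libraries, nol-56 10.5 ± 0.928 in fasted and 0.790 ± 0.233 in fed, nol-58 5.74 ± 0.416 in fasted and 0.251 ± 0.116 in fed, and snu-13 3.43 ± 0.352 in fasted and 0.307 ± 0.234 in fed (SD, n = 4 each). The log2 fold changes of nol-56 (3.72, SE 0.247) and snu-13 (3.48, SE 0.496) were below that of fib-1 (5.04).

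In yeast and mammals pescadillo binds BOP1 and WDR12. The BOP1 gene Y48B6A.1 averaged 3.60 ± 0.325 RPKM in fasted and 0.236 ± 0.0281 RPKM in fed libraries, a log2 fold change of 3.92 (SE 0.209), while wdr-12 averaged 0.640 ± 0.243 RPKM in fasted and 0.382 ± 0.219 RPKM in fed libraries (SD, n = 4 each). As means of the library ratios, there were 99.5 reads of lpd-7 per read of wdr-12 in fasted libraries and 5.95 in fed libraries. The size of that ratio is uncertain, since wdr-12 had 42, 21, 16 and 33 counts in fasted libraries and 14, 4, 24 and 14 in fed libraries. For Y48B6A.1 there were 9.97 reads of lpd-7 per read in fasted libraries and 4.53 in fed libraries. The genes of this complex therefore differed in unequal measure between the groups.

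Of the other 4 worm TRIM-NHL genes, the relatives of ncl-1, 3 were called higher by totals (lin-41, nhl-1 and nhl-2), as were 52.9% of all tested genes, and 2 with TMM (lin-41 and nhl-1), as were 19.6%. The gene lin-41, a regulator of larval timing and of oocyte growth, had 4.40, 7.39, 2.30 and 5.47 RPM in fasted libraries, against 0.114, 0.429, 0 and 0.341 RPM in fed libraries, a log2 fold change of 4.47 (SE 0.650, edgeR FDR 1.19e-04).

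The gene nhl-1 had 3.91, 0.711, 0.466 and 6.88 RPM in fasted libraries, against 0.152, 0, 0 and 0 RPM in fed libraries, and was high in the same fasted replicates 1 and 4 as the muscle and pharynx markers. Its log2 fold change was 6.07 (SE 1.2, edgeR FDR 9.38e-04). It was 9.37 without fed replicate 1, the one fed library with reads, and 3.73 without fasted replicates 1 and 4, where the call was lost (FDR 0.0209). Unlike nhl-1, ncl-1 had nearly equal levels in those 2 and the other fasted libraries.

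The gene nhl-2, whose protein works with microRNA complexes in worms, had 9.13, 11.6, 7.13 and 4.93 RPM in fasted libraries, against 4.93, 1.34, 2.90 and 2.31 RPM in fed libraries. Its log2 fold change of 1.51 (SE 0.383, edgeR FDR 0.00442) was not called with TMM (0.45), with DESeq2 or when any of 5 single libraries was left out (FDR 0.0120 to 0.0201). The gene nhl-3 had 1.41, 1.5, 0.533 and 1.71 RPM in fasted libraries, against 0.303, 0, 1.09 and 0.303 RPM in fed libraries, and was not called (1.58, SE 0.755, edgeR FDR 0.0772). Without fed replicate 3 its log2 fold change was 2.60, still not called (FDR 0.0173).

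The names lpd and dao come from screens for lipid depletion and for transcripts of dauer or ageing adults, and other genes that carry them are not assembly factors. Of the 6 such genes tested, 3 were called higher by totals, close to the 52.9% of all tested genes, and 2 with TMM, where 19.6% were. Their median log2 fold change by totals was 1.44. The gene lpd-2, a C/EBP-like factor, was at 2.60 (SE 0.505, edgeR FDR 8.51e-04; not called with TMM) and lpd-9 at −0.27 (SE 0.552, edgeR FDR 0.662). The gene dao-6 was at least 292-fold higher, against a floor of 3 counts per fed library. So the log2 fold changes of lpd-6 (3.63) and lpd-7 (5.1) lay above those of lpd-2 and lpd-9.

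The genes whose pattern over the 8 libraries was most like that of the factors were ranked by Pearson's r of log2(RPM + 0.5) among 4876 genes. Every fasted library lay above every fed library in 58.5% of all tested genes, and a high r mostly measures such a difference between the groups. For the mean profile of the 8 factors, dao-6, btb-9 and ampd-1 came first, each with r = 0.999. The AMP deaminase gene ampd-1 averaged 138 ± 16.3 RPM in fasted and 18.9 ± 1.31 RPM in fed libraries, and btb-9 averaged 39.7 ± 1.39 RPM in fasted and 3.10 ± 0.294 RPM in fed libraries (SD, n = 4 each).

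For ncl-1 the closest genes were C16C10.8 (r = 0.997), the RNA polymerase I subunit gene rpoa-49 (r = 0.997) and E02H1.1 (r = 0.996). That list rests on the pseudocount: with 1 in place of 0.5, 2 of the 3 were still among the first 3, and with 8 it was 0 of the 3. For the factors 2 of the 3 genes were kept with either.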

How the data were processed

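RNA of dissected intestines from 4 fasted and 4 fed samples was converted to cDNA by a Smart-Seq kit and sequenced. The deposited values are raw counts: the authors trimmed reads with Trimmomatic, aligned them to ce10 with QuasR and hisat2, kept unique reads and counted those within WormBase exons per gene in the same orientation. The deposited table also holds a width (another unit, exon length in base pairs), used here for RPKM. The number of value columns without a sample was 0. The labels call the replicates biological.

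Names and gene positions come from the Ensembl annotation of WBcel235, matched on WormBase identifiers, and no coordinates were converted. One of the 10 symbols, nol-1, matched no row, so the design's 9 assembly factors became 8. The members and all gene lists were chosen with earlier results of these data known.

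Counts were fitted with edgeR 4.0.16 (glmQLFit, glmQLFTest; limma 3.58.1, R 4.3.3), with total counts as library size, the group as the only term and filterByExpr (minimum count 10, minimum total 15), which left 7379 genes. Benjamini-Hochberg adjustment ran over all of them, and calls needed an adjusted P (FDR) below 0.01 together with more than 1.5-fold change. Scripts were tested on simulated data. Alternatives were TMM, DESeq2 1.42.0 and its size factors, totals without vitellogenins, other filters, a replicate term and leaving out libraries. Named outside the members were the 2 largest and the smallest log2 fold change of each list, genes whose call differed from most of their list, all TRIM-NHL genes and the 3 genes most like ncl-1 or the factor mean. Total counts ranged from 20964161 to 33846215, and intervals and floors cover counting error only, as PCR copies cannot be told from molecules.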

Additional observations from a re-analysis of the deposited data

Results flagged for a closer look

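Of 54 groups of 4 values examined (in fasted or fed libraries, the 9 members, the sums of the factors and of 8 marker lists, and the ratios to ncl-1 of each factor and of their sum), 3 had a highest or lowest library further from the others than Dixon's 95% critical value allows, where chance gives about 1 in 20. The level of fib-1 was 2.21 RPM in fed replicate 3, below the 2.92 to 3.03 RPM of the other fed libraries. The hypodermis marker sum was 218 RPM in fasted replicate 1, above the 13.5 to 43.5 RPM of the other fasted libraries. Of that 218 RPM, col-140 alone made 205 RPM. The sperm marker sum was 0.899 RPM in fasted replicate 3, below the 2.36 to 2.59 RPM of the other fasted libraries.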

How the results depend on the processing

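All 153 log2 fold changes of the 9 members recomputed over 17 alternatives kept their sign. The count of genes higher in fasted libraries, 3901 by totals, was 1448 with TMM, 1445 with DESeq2 size factors, 1748 with DESeq2 and 1316 with a replicate block and TMM. The count of lower genes, 736 by totals, was 1585, 1601, 1754 and 1502 under those same alternatives, in the same order. The factor sum, 31.5-fold higher by totals, was 14.9-fold higher with TMM and 26.3-fold higher per 1000000 counts outside the vitellogenins. Leaving out 1 library at a time gave 3521 to 3908 higher and 636 to 724 lower genes, 8 to 9 members called, 47 to 49 of the 51 ribosome biogenesis genes called higher, and a factor sum 30.2-fold to 32.6-fold higher. The member lost was pro-3, without fed replicate 3.

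Without fasted replicates 1 and 4, an alternative chosen after seeing the data, as was the ratio to ncl-1, there were 2950 higher and 648 lower genes, and 7 members were called, without pro-1 and pro-3. The ribosome biogenesis genes called higher were then 45, as with DESeq2. Same-numbered libraries of the 2 groups deviated together weakly at most (r = 0.0414, 0.0873, 0.0684 and 0.155, 1 of 4 over 0.1). Pairs with different numbers had r from −0.166 to 0.137. Values this small cannot tell whether libraries with the same number shared a day or batch. With the replicate block, 3576 genes were higher and 693 lower, and 9 members were called; with the block and TMM it was 6 members. Depth limits pro-3, lpd-6, pro-2 and pro-1 in fed libraries.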
